A study of Nannochloropsis oceanica strain IMET1 with 15 samples.

Results

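In *Nannochloropsis oceanica* IMET1, a unicellular oil-producing alga, 229 nuclear genes were lower in M2 and higher in M4 than in the wild type (WT). Both lines are knockouts, M2 of NO08G00280, which the study took as a writer of DNA N6-methyladenine (6mA), and M4 of NO06G02500, which it took as an eraser of 6mA. Members were picked by the value L, the log2 of (line mean + 1) over (WT mean + 1), on the TMM-normalized TPM (a length-corrected transcript abundance, scaled between libraries). A member is a nuclear gene with a WT mean of 10 or more, an L of -0.4 or less in M2 and an L of 0.4 or more in M4. Of 10493 genes in the matrix, 10333 are nuclear, 8151 of these passed the WT minimum, and 229 met all thresholds, or 2.81 in 100 of the 8151. Because the WT, M2 and M4 values made the choice, M2 and M4 are described against the WT without a test. Tests of the other knockout lines, M1 and M3, against the WT share the WT libraries with the choice, so that they are not independent of it.

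The libraries came from cultures taken on day 7 under high light, with 3 biological replicates each of 5 groups, 15 in all. The groups were the IMET1 WT, M1 and M2 (NO08G00280 knockouts) and M3 and M4 (NO06G02500 knockouts), and all 4 lines were made with CRISPR-Cas9 from a vector that carries a drug-resistance gene. Each line is 1 clone, so that its replicates are cultures of that clone, and what the knockout does cannot be told apart from what else differs between clones. Transcripts of the knocked-out genes do not check the genotypes, since Cas9 leaves small changes in the DNA: the level of NO08G00280 was 8.21 ± 1.44 TMM-normalized TPM in WT libraries (SD, n = 3) and 7.26 ± 0.468 in M2, and NO06G02500 had 56.6 ± 1.90 in the WT and 55.9 ± 1.90 in M4. Coverage divided by FPKM, which rises with sequencing depth, was 4.69 to 6.17. The organelle genes' share of a library's summed values was 0.0271% to 0.0318% in M2, 0.0330% to 0.0476% in the WT and 0.0600% to 0.0750% in M4, and its part in the results was not tested.

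6mA is a methyl group on the adenine base of DNA. Methyltransferases write it, enzymes of the AlkB family can remove it, and in some algae it marks the starts of active genes. M1 is knocked out in the same gene as M2, and M3 in the same gene as M4, and neither was used in the choice.

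Relative to the WT, the members stood at a median of 53.3% in M2 and 147% in M4. The median L was -0.89 in M2, where 97 members had an L of -1 or less and 25 of -2 or less, and 0.54 in M4, where 17 had an L of 1 or more. The choice took 13.6% of the 1682 genes at or below the M2 threshold and 41.1% of the 557 at or above the M4 threshold. For comparison, 137 genes met the thresholds with the signs turned, 215 were past them in the lower direction in both lines, and 108 in the higher direction in both. The M4 mean was 1.79 to 191 times the M2 mean over the 227 members with an M2 mean above 0 (median 2.82), and 42 members had a ratio of 5 or more. As a share of all values in a library, the members made up 2.79% to 3.30% in the WT, 1.59% to 1.62% in M2 and 4.35% to 4.85% in M4. Values in M1 libraries, at 2.58% to 3.78%, lay on both sides of the WT range, and those in M3, at 2.38% to 2.74%, lay below it.

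At the edges of the rule the values ran on without a gap. Just inside the M2 threshold were NO03G03980 (L of M2 -0.4003) and NO12G00260 (-0.4021), and just outside were NO26G00830 (-0.3949) and NO19G01820 (-0.3934). At the M4 threshold, NO03G00240 (L of M4 0.40195) and NO11G03140 (0.40198) were just inside, and NO01G04320 (0.3986) and NO27G01840 (0.3973) just outside. By WT mean, NO28G00320 (10.08) and NO04G02990 (10.10) were just inside, and NO07G00490 (9.82) and NO08G02820 (9.01), which met both L thresholds, just outside.

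**Figure D1:**
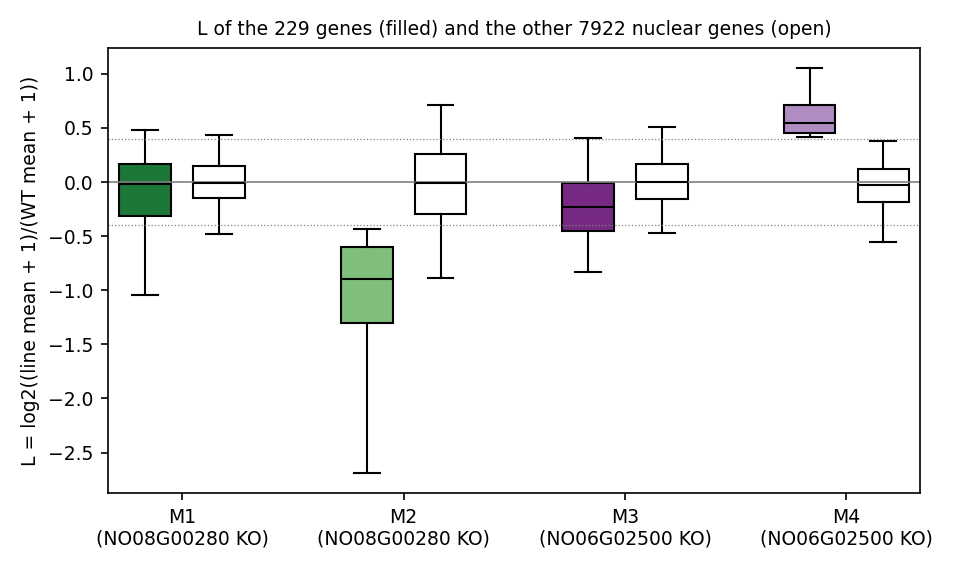
L in each knockout line (vertical axis, log2 scale) for the 229 members (filled boxes) and the other 7922 nuclear genes with a WT mean of 10 or more (open boxes). Boxes span the quartiles with a line at the median, whiskers the 5th to 95th percentiles, and dotted lines the thresholds at -0.4 and 0.4; the M2 and M4 boxes of the members are fixed by the choice, while those of M1 and M3 are centred at -0.02 and -0.23.

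Genes with a description were few, and among them were ion pumps and channels, protein kinases, G proteins, redox enzymes and desaturases. Descriptions exist for 29 members and come from the study's list of differentially expressed genes, in which each gene carries the name of an *Arabidopsis* match; with the desaturases of its heat map, 31 members are described or in 1 of 10 lists of genes by function. Since only genes that the study called have a description, the make-up of these lists is not independent of the data. Members were 29 of the 228 described genes and 21 of the 111 genes in the lists, the shares to set beside those of single lists. In the lists were 5 of 16 ion pumps, channels and water channels, 5 of 15 redox enzymes, 3 of 12 protein kinases, 2 of 8 G proteins and their receptors, 2 of 7 desaturases, 2 of 6 ankyrin repeat proteins, 1 of 12 genes of light reception, clock and light harvesting, and 1 of 11 genes of nitrogen, sulfur and phosphorus uptake and assimilation. None of 11 other lipid genes and none of 13 heat shock proteins and chaperones was a member. Of the 111 listed genes, members or not, limma called 7 lower and 2 higher in M1 than in M3 (on log2 values, adjusted p under 0.05), against 2.1% and 1.4% of all tested genes, and 3 of the lower ones were among the 7 desaturases. With only the M1 and M3 libraries fitted, 5 of all tested genes were lower and 2 higher. Since the lists draw on genes that the study called in these libraries, higher call rates in them were partly set in advance. The shares of all tested genes are thus no like comparison.

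The proton pump NO12G00390 had the widest span among the listed members. It is described as H(+)-ATPase 2, a plasma-membrane pump that builds the proton gradient used for nutrient uptake (chromosome 12, 141260 to 146773, plus strand, IMET1v2; it overlaps NO12G00400, so that reads of the pair cannot be told apart without strand). In the WT it had 845, 1120.5 and 869.8 TMM-normalized TPM, and in M2 38.4, 40.0 and 51.9, a WT mean 21.8 times the M2 mean. In M4 it had 1247, 1262 and 1475, all above the WT. M1 had 671, 401 and 243 and M3 had 779, 679.9 and 631, so that both lines lay below all WT libraries, M1 with a wide spread between its replicates. limma did not call the difference from the WT in M1 (log2 difference -1.22, SE 0.28, adjusted p = 0.0529) or in M3 (-0.43, SE 0.28, adjusted p = 0.406).

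Other members that move ions or water had smaller spans. NO16G02820, an endoplasmic reticulum-type calcium-transporting ATPase (chromosome 16, 809303 to 814239), had 286, 369 and 375 TMM-normalized TPM in the WT, 70.9, 68.0 and 90.4 in M2 and 433, 501 and 449.5 in M4. Its M1 libraries (337, 274 and 196) overlapped the WT and its M3 libraries (281, 216 and 215) lay below it. NO10G02530, described as the potassium channel STELAR K+ outward rectifier (chromosome 10, 684799 to 688932), had 110.2, 128 and 114 in the WT, 28.7, 29.7 and 32.4 in M2 and 188, 172 and 170.3 in M4. In this gene the 3 groups were apart, while M1 (107, 85.9 and 72.2) lay below the WT and M3 (125, 89.1 and 72.6) overlapped it. Bestrophin-like NO29G00910, of a family of anion channels (chromosome 29, 319919 to 322331), showed no such order, with 128, 67.5 and 77.8 in the WT, 19.5, 20.2 and 24.4 in M2, and 161, 186 and 65.1 in M4, so that 1 M4 library was below the WT.

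NO20G01770, an aquaporin described as plasma membrane intrinsic protein 2;8 (chromosome 20, 534307 to 537549), was low in both NO08G00280-knockout lines. Values were 12.1, 12.8 and 19.3 TMM-normalized TPM in the WT, 8.53, 6.90 and 5.94 in M1, 6.49, 6.38 and 5.92 in M2, 13.1, 10.7 and 10.2 in M3 and 21.6, 29.8 and 25.6 in M4. It fell in M1 relative to the WT (log2 difference -0.94, SE 0.19, adjusted p = 0.0333 from limma). That call ended when any 1 of 7 libraries was left out, namely WT replicates 2 and 3, M1 replicates 2 and 3 and each M2 library (adjusted p from 0.0502 to 0.110), and with a replicate block (adjusted p = 0.0703). A fit of M1 and the WT alone ended it too (adjusted p = 0.264), and every call named below was also lost in a fit of its compared groups alone.

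Of the kinases, NO06G02770 had the lowest L of M2. It is described as SNF1-related protein kinase 1.3, of a family that senses the energy state of the cell (chromosome 6, 780723 to 784726), and had 102, 194 and 205 TMM-normalized TPM in the WT, 13.8, 13.8 and 20.9 in M2, and 264, 293 and 192 in M4. The lowest M4 library was below the highest WT libraries, while all M2 libraries were far below the WT. M1 (160.3, 111 and 79.6) and M3 (172, 148 and 126) overlapped the WT. NO10G01760, a protein-serine kinase (chromosome 10, 488721 to 491997), differed more in M4 than in M2, with 13.9, 22.5 and 16.1 in the WT, 12.8, 10.3 and 11.4 in M2 and 49.7, 42.2 and 41.6 in M4. NO15G00050, calcium-dependent protein kinase 29, which links calcium signals to phosphorylation, sat 5 genes from the end of chromosome 15 (7336 to 11782) and had values of 140.2, 63.7 and 53.0 in the WT, 22.7, 24.6 and 22.1 in M2, and 51.4, 166 and 194 in M4, so that M2 lay below the WT and M4 overlapped it.

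NO04G03580, described as the alpha subunit of a heterotrimeric G protein, which relays signals from membrane receptors (chromosome 4, 971539 to 972901), had 32.0, 52.3 and 25.5 TMM-normalized TPM in the WT, 8.10, 6.93 and 9.06 in M2 and 82.2, 72.9 and 76.0 in M4. M2 and M4 did not overlap the WT, and M1 (53.3, 45.5 and 29.8) and M3 (29.4, 32.7 and 28.1) lay within or at the edge of it. NO10G03900, a GTP-binding protein of the HflX family (chromosome 10, 1139831 to 1146752), was tight within groups, at 114, 127 and 127 in the WT, 52.5, 52.2 and 54.2 in M2 and 167, 172 and 174 in M4.

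NO01G04880 matches phototropin 2, a blue-light receptor, and is an aureochrome in the study's heat map, the class of blue-light receptors known from algae of this lineage (chromosome 1, 1289986 to 1292497). It had 68.7, 92.7 and 97.6 TMM-normalized TPM in the WT, 8.93, 11.4 and 11.1 in M2 and 149.5, 148 and 163 in M4. M1 had 57.5, 39.0 and 28.1, all below the WT, and the gene fell in M1 (log2 difference -1.08, SE 0.21, adjusted p = 0.0323 from limma). The fall in M1 lost its call without WT replicate 2, WT replicate 3, M1 replicate 2 or M1 replicate 3 (adjusted p from 0.0700 to 0.119) and with a replicate block (0.0642). In M3, with 68.9, 66.4 and 58.9, it was not called (log2 difference -0.40, SE 0.21, adjusted p = 0.314).

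In the desaturases, which place double bonds in fatty acids, M1 lay below the WT together with M2. NO28G00700, a delta-6 desaturase (chromosome 28, 238179 to 241856, overlapping NO28G00690), had 82.4, 77.2 and 84.8 TMM-normalized TPM in the WT. M1 (46.0, 37.7 and 51.4) and M2 (56.5, 45.6 and 41.3) lay below all WT libraries, and M3 (143, 106 and 88.1) and M4 (151, 119.6 and 128) above all of them. The gene was lower in M1 than in M3 (log2 difference -1.28, SE 0.17, adjusted p = 0.00414 from limma), and this call held when each library was left out in turn, but not in a fit of M1 and M3 alone (adjusted p = 0.180). Against the WT it fell in M1 (log2 difference -0.85, SE 0.17, adjusted p = 0.034), a call that ended without any 1 of 8 libraries (WT and M1 replicates 1 to 3, M2 replicate 2 and M3 replicate 2; adjusted p from 0.0509 to 0.131), with unscaled TPM (0.0583) or with quantile normalization (0.0506).

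NO16G01570, a delta-9 desaturase and 1 of the 5 members with the highest WT mean (chromosome 16, 474490 to 475569), had 1825, 1924 and 1943 TMM-normalized TPM in the WT. Its values were 1421, 1229 and 1259.8 in M1, 1618, 1263 and 1269.9 in M2, 2176, 1883 and 1674 in M3 and 2499.8, 2501 and 2598 in M4. M1 was lower than M3 (log2 difference -0.55, SE 0.11, adjusted p = 0.0227 in the limma fit). It was also lower than the WT (-0.54, SE 0.11, limma adjusted p = 0.0333). The first call ended without M1 replicate 2, M3 replicate 1 or M3 replicate 2 (adjusted p from 0.0592 to 0.0981) and with quantile normalization (0.0938), and the second without any 1 of 7 libraries (WT replicates 1 to 3, M1 replicates 2 and 3, M3 replicate 2 and M4 replicate 2; adjusted p from 0.0509 to 0.129), with unscaled TPM (0.0556) and with quantile normalization (0.0872).

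Redox members showed how unlike the replicate agreement was between genes. NO11G00060, a cytochrome P450 of the 97B family, a class that hydroxylates carotenoids (chromosome 11, 11280 to 14679), had 98.7, 168 and 154 TMM-normalized TPM in the WT, 46.2, 52.7 and 57.3 in M2 and 288, 276 and 267 in M4. By contrast, the WT and M2 overlapped in NO10G02260, described as P450 reductase 1 (chromosome 10, 620819 to 625407). Enzymes of that class pass electrons to P450 enzymes, and which of them it serves here is not known. NO10G02260 had 442, 143 and 536 in the WT and 207, 63.1 and 242 in M2. Its 3 M4 libraries (622, 731 and 720.3) were above the libraries of every other group. The remaining redox members were NO07G00250 of the thioredoxin superfamily, NO03G05710 of the GMC oxidoreductases and the copper amine oxidase NO15G02530, with WT means of 23.7 ± 6.99, 18.4 ± 4.76 and 21.3 ± 1.56, M2 means of 8.14 ± 3.83, 9.46 ± 1.27 and 9.47 ± 0.643, and M4 means of 36.6 ± 1.82, 29.5 ± 2.27 and 30.3 ± 4.82 (SD, n = 3).

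NO24G02300, cnx3, an enzyme of the molybdenum cofactor that nitrate reductase needs (chromosome 24, 614691 to 616970), had 282, 319 and 301 TMM-normalized TPM in the WT, 201, 143 and 155 in M2 and 404, 416 and 404 in M4. These 3 groups did not overlap, M3 (312, 293 and 251) overlapped the WT, and so did M1 (274, 334 and 185). The ankyrin repeat proteins, which bind other proteins, were NO03G03090, with means of 77.8 ± 10.5 in the WT, 30.5 ± 5.15 in M2 and 154 ± 16.3 in M4, and NO11G03050, with 12.8 ± 0.824, 1.43 ± 0.734 and 18.4 ± 1.70 (SD, n = 3).

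Of the described members outside the lists, NO02G00100, alanine:glyoxylate aminotransferase 3, had means of 140.4 ± 20.3 TMM-normalized TPM in the WT, 25.9 ± 2.97 in M2 and 199.7 ± 16.2 in M4 (SD, n = 3). NO27G01570, described as transcription regulators, had 393 ± 80.1, 92.9 ± 38.2 and 531 ± 122, and NO17G00100, methionine aminopeptidase 1A, which trims the first residue of new proteins, had 25.6 ± 5.45, 8.04 ± 0.594 and 44.0 ± 4.80. For NO26G01260, an RNA-binding protein, they were 26.6 ± 2.94, 7.87 ± 0.198 and 39.0 ± 3.94. The others were described as an Acyl-CoA N-acyltransferase (NO02G06000), beta-6 tubulin (NO04G01220), beta glucosidase 42 (NO04G04860), tubby like protein 11 (NO06G02700), an OB-fold protein (NO26G00220) and a Rossmann-fold protein (NO30G00590), with an L of M2 from -1.94 to -0.73 and an L of M4 from 0.41 to 1.05.

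**Figure D2:**
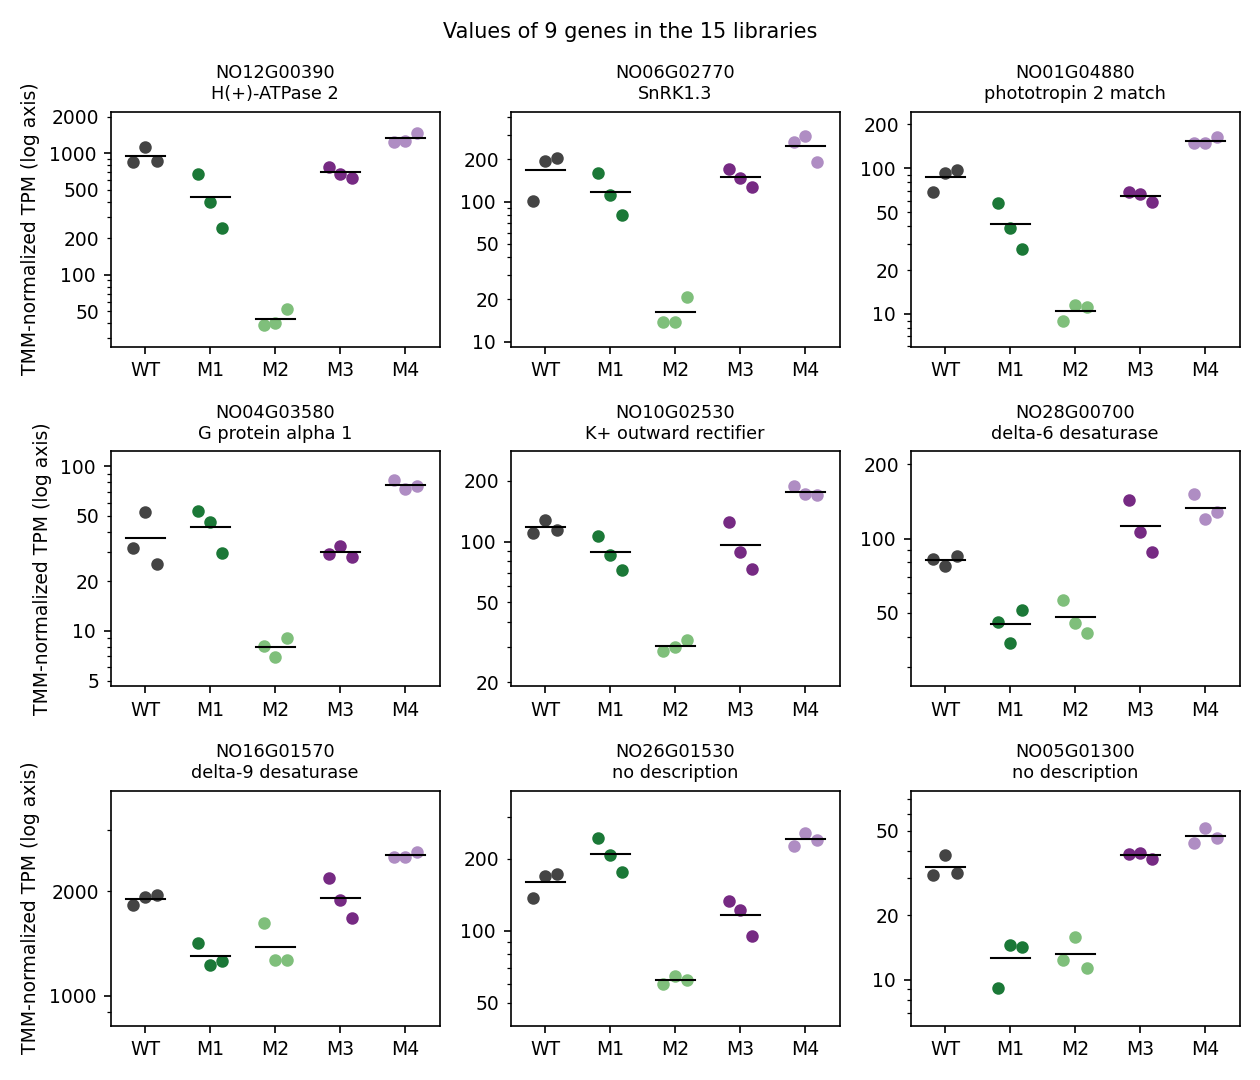
TMM-normalized TPM (vertical axes, log scale) of 9 members in the 15 libraries, with 1 point for each library and a line at the group mean. In NO12G00390 the 3 M2 libraries lie between 38.4 and 51.9 and the 3 M4 libraries between 1247 and 1475, while in NO28G00700 and NO05G01300 the M1 points lie with those of M2.

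Members with the lowest L of M2 included genes with no description whose replicates agreed and others in which single libraries set the mean. NO06G00010, the outermost gene of a chromosome 6 end (155 to 2780, minus strand), had 22.7, 25.8 and 28.5 TMM-normalized TPM in the WT, 0.418, 0.522 and 0.270 in M2 and 99.7, 68.5 and 62.4 in M4 (L of M2 -4.25 and of M4 1.55). NO16G02300 (chromosome 16, 666643 to 666978) had 189.6, 225 and 220.4 in the WT, 15.8, 10.3 and 22.3 in M2 and 271, 309 and 303 in M4. Means of NO30G01270 (chromosome 30, 462384 to 463196) were 70.9 ± 11.6 in WT libraries (SD, n = 3), 6.58 ± 0.980 in M2 and 115 ± 11.4 in M4, and those of NO02G00010, outermost on chromosome 2 (1610 to 3678), were 78.1 ± 6.04, 9.73 ± 0.887 and 154 ± 28.7. In these 4 genes no M2 or M4 library overlapped the WT.

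By contrast, NO05G02320 was listed at 0 in 2 of the 3 WT libraries and in all libraries of M2 and M3, with 139 in WT replicate 2, 117 in M1 replicate 1, and 133 and 155 in M4 replicates 2 and 3. NO03G04380 was listed at 0 in every M2 library and in replicates 1 and 2 of WT, M1 and M3, had 49.3, 45.0 and 46.5 in replicate 3 of these groups, and had 85.1, 77.3 and 69.3 in M4. NO08G01540 had 2.06, 0.642 and 2.75 TMM-normalized TPM in M2 and a WT replicate 2 far below the others (66.7, 0.942 and 46.9), and its M4 libraries (53.0, 43.5 and 56.5) overlapped the WT.

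High L of M4 rested on 1 library in some genes. NO10G01520 had 26.0, 22.5 and 224 TMM-normalized TPM in M4 against 24.9, 19.0 and 20.4 in the WT. NO22G02210 had 2.05, 1.87 and 76.7 in M4 against 13.2, 4.24 and 16.4, so that 2 of its 3 M4 libraries were below the WT. Values of NO02G00560, NO03G04620 and NO13G00100 jumped within groups too, for example 23.1, 6.03 and 3.44 in M3 for NO13G00100. NO19G01050 was even, with 12.9, 16.6 and 14.7 in the WT, 7.74, 7.83 and 6.20 in M2 and 37.5, 37.8 and 28.9 in M4, and NO25G00490 had 213, 209 and 203 in M4, above a WT of 128, 41.1 and 110.2.

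The members with the highest WT mean were NO24G02220, NO16G01570, NO02G06060, NO02G05470 and NO12G00390. NO24G02220 (chromosome 24, 592340 to 594397; no description) had 4488, 7690.1 and 5792 TMM-normalized TPM in the WT, 3469, 2945 and 3253 in M2 and 8704, 8961 and 7219 in M4, with 1 M4 library inside the WT range. NO02G06060 (chromosome 2, 1621676 to 1623364) had 1355 ± 228 (SD, n = 3) in the WT, 537 ± 89.5 in M2 and 1852 ± 196 in M4. NO02G05470 (chromosome 2, 1456806 to 1459029) had 1177 ± 68.3, 889 ± 56.8 and 1613 ± 34.6, and NO02G05450 on the same chromosome, with values within 0.098 on the log2 scale in every library, had an L of -0.30 in M2 and so was no member (whether the pair shares reads was not tested).

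Replicates agreed in most members on the values that made the choice. All 3 M2 libraries were below all 3 WT libraries in 181 members (among the 8151 genes that passed the WT minimum, 28.7%), all 3 M4 libraries were above them in 178 (13.2%), and both held in 158 (6.87%). These counts follow in part from the choice and are no test. In 28 members both M2 and M4 overlapped the WT. At least 1 library was listed at 0 for 13 members, and 216 had none. A range of 2 or more on the log2(value + 1) scale within a group was found in 40 members, or 17.5%, against 9.52% of the genes that passed the WT minimum, and of these 40 only 4 had M2 and M4 both apart from the WT.

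In M1, the other NO08G00280-knockout line, the members lay near the WT only as an average of replicates that differed, as given further on for its replicates 1 and 3. The M1 mean was at a median of 98.8% of the WT mean (median L -0.02), with 118 members below and 111 above the WT, or 51.5% below against 51.1% of the genes that passed the WT minimum. Spread about the WT was wider than in those genes: 44 members had an L of -0.4 or less (19.2%, against 7.12%) and 23 an L of 0.4 or more (10.04%, against 6.12%). The mean of M1 lay between those of M2 and the WT in 106 members, between those of the WT and M4 in 105, below M2 in 12 and above M4 in 6. Since L of every line shares the WT libraries, these shares are not independent of the choice.

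M3, the other NO06G02500-knockout line, was on the M2 side of the WT in most members and not on the side of M4. Its mean was at a median of 85.0% of the WT mean (median L -0.23), with 174 members, or 76.0%, below the WT, against 49.9% of the genes that passed the WT minimum. An L of -0.4 or less was found in 73 members (31.9%, against 7.74%) and of 0.4 or more in 13 (5.68%, against 8.27%). The M3 mean lay between those of M2 and the WT in 165 members and between those of the WT and M4 in 51. In the 137 genes with the opposite signs, higher in M2 and lower in M4, the median L was 0.19 in M1 and 0.29 in M3. In 112 members, or 48.9%, both M1 and M3 had an L between -0.4 and 0.4, against 76.8% of the genes that passed the WT minimum.

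Tested gene by gene in the main fit, few members were called against the WT in M1 and 0 in M3. Members not called are not thereby shown to equal the WT. As the WT libraries also made the choice, calls against the WT, here and for single genes, are not independent of it. On log2(value + 1) with all 15 libraries in 1 fit and adjustment over 9440 genes, limma called 11 members lower and 0 higher in M1 than in the WT at an adjusted p under 0.05 (1.13% and 0.593% of all tested genes were called lower and higher, or 1.29% and 0.466% of those with a WT mean of 10 or more). At an unadjusted p under 0.05, 36 of the 229 members were lower and 5 higher, against 9.49% and 7.86% of all tested genes. Without WT replicate 1 the 11 became 7, without WT replicate 2 or 3, 2 and 1, and without M1 replicates 1, 2 and 3, 18, 1 and 2. With a replicate block 5 were called lower, and with only the M1 and WT libraries fitted 0. In M3 limma called 0 members in either direction (0.339% lower and 0.646% higher of all tested genes, or 0.368% and 0.699% of those with a WT mean of 10 or more). At an unadjusted p under 0.05, however, 44 of the 229 members were lower in M3 and 2 higher, against 10.3% and 10.2% of all tested genes. The M3 count of lower members became 2 without WT replicate 1 or M3 replicate 1, 1 without M1 replicate 1 and 14 without M1 replicate 3, a library that enters the comparison only through the shared spread. The median log2 difference over the members was -0.04 in M1 and -0.24 in M3. In M1 single libraries set its size and its sign, since it was -0.19 without M1 replicate 1 and 0.09 without M1 replicate 3. It was -0.09 without WT replicate 1, -0.06 without M1 replicate 2 and -0.0005 without WT replicate 3. In M3 it stayed below 0 without each of these libraries and was -0.16 without M3 replicate 3.

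All 3 M1 libraries were below all 3 WT libraries in 34 members (12.2% of the genes that passed the WT minimum) and above in 5 (9.26%), and the M3 libraries were below in 55 (13.5%) and above in 3 (12.5%). As shares of the 229 members these counts were 14.8%, 2.18%, 24.0% and 1.31%. All 3 M3 libraries below and all 3 M4 libraries above the WT were found together in 52 members (2.55% of the genes that passed the WT minimum), and all 3 M1 libraries above with all 3 M2 libraries below in 4 (0.466%); the M2 and M4 sides of these counts follow from the choice.

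The size of the difference between M1 and M3 rests on libraries that the choice did not use. The calls also rest on a spread shared by all 15 libraries, those of the WT, M2 and M4 included. limma called 10 members higher in M1 than in M3 (called in this direction were 1.4% of all tested genes and 1.34% of those with a WT mean of 10 or more) and 6 lower (2.1% and 2.34%), with 45 higher and 17 lower at an unadjusted p under 0.05, against 8.42% and 9.74% of all tested genes. The median M1 minus M3 difference was 0.08 on the log2 scale over the members and 0.00 over all tested genes, and single libraries moved it: over the members it was 0.03 without M1 replicate 1, 0.25 without M1 replicate 3 and 0.14 without M3 replicate 2. The M1 mean was above the M3 mean in 140 members, or 61.1%, against 49.0% of the genes that passed the WT minimum. M1 libraries were all above M3 libraries in 25 members (8.24% of those genes) and all below in 13 (10.5%).

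Single libraries set how many were called. The 10 higher members became 35 without M1 replicate 3, 3 without M1 replicate 1, 2 without M1 replicate 2, 4 without M3 replicate 2 and 3 without M3 replicate 3. The 6 lower members became 2 without M1 replicate 2. With only the M1 and M3 libraries fitted, 0 were called in either direction, while a replicate block gave 7 and 5.

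Of the members called higher in M1 than in M3, NO11G02670 (chromosome 11, 828315 to 830946; no description) had 724, 587 and 506 TMM-normalized TPM in M1 and 372, 336 and 306 in M3, against 358, 478 and 457 in the WT (log2 difference of M1 from M3 0.83, SE 0.13, adjusted p = 0.0106 from limma). It kept its call without each single library, but not in a fit of M1 and M3 alone (adjusted p = 0.225). NO26G01530 (chromosome 26, 496166 to 501457) had 245, 207 and 177 in M1, 134, 122 and 94.9 in M3 and 137, 169 and 172 in the WT (0.84, SE 0.14, adjusted p = 0.0115), a call that ended without M1 replicate 2 (adjusted p = 0.0503). In both genes all M1 libraries were above all WT libraries, while all M2 libraries were below.

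NO08G02550 (chromosome 8, 727000 to 727251) had 67.2, 58.5 and 35.2 in M1 and 27.1, 27.1 and 21.5 in M3 (log2 difference 1.01, SE 0.23, adjusted p = 0.0358 from limma). NO05G00040 (chromosome 5, 10484 to 13915) had 718, 589 and 337 in M1 and 271, 254 and 252 in M3 (1.01, SE 0.24, adjusted p = 0.0428), and NO09G00010, an outermost gene of chromosome 9 (464 to 4088), had 125, 113 and 68.7 in M1 and 50.3, 55.4 and 45.6 in M3 (0.96, SE 0.19, adjusted p = 0.019). In these 3 genes M1 replicate 3 was the lowest of its group. The call of NO08G02550 ended without any 1 of 10 libraries (WT replicate 3, M1 replicates 1 and 2, M2 replicate 2 and every M3 and M4 library), that of NO05G00040 without any 1 of 12 (all but WT replicates 2 and 3 and M1 replicate 3), and that of NO09G00010 without M1 replicate 1, M1 replicate 2 or M3 replicate 3 (adjusted p from 0.0501 to 0.136, from 0.0513 to 0.159 and from 0.0748 to 0.0864). A replicate block ended the calls of NO08G02550 (0.0601) and NO05G00040 (0.0536). The described member NO04G04860, beta glucosidase 42, was also higher in M1 (103, 85.8 and 113) than in M3 (65.4, 65.1 and 67.5; 0.59, SE 0.11, adjusted p = 0.018), except without M1 replicate 1, M3 replicate 2 or M3 replicate 3 (adjusted p from 0.0572 to 0.0713).

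Besides the 2 desaturases, the largest fall of M1 below M3 among the called members was that of NO05G01300 (chromosome 5, 372598 to 372920; no description). It had 31.0, 38.4 and 31.5 TMM-normalized TPM in the WT, 9.12, 14.6 and 14.2 in M1, 12.4, 15.9 and 11.3 in M2, 38.8, 39.3 and 36.7 in M3, and 43.5, 51.3 and 46.1 in M4. M1 and M2 libraries were all below the WT, and the difference of M1 from M3 was -1.55 (log2, SE 0.17, adjusted p = 0.000982 in the limma fit). Its difference from the WT was -1.37 (SE 0.17, limma adjusted p = 0.00452). Neither call ended when a single library was left out, though both did in fits of the compared groups alone (adjusted p = 0.110 and 0.168).

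NO11G02480 (chromosome 11, 788456 to 791865) had 54.5, 46.6 and 44.3 in M1 and 145, 96.6 and 87.0 in M3, with 84.0, 90.0 and 103 in the WT (log2 difference of M1 from M3 -1.13, SE 0.20, adjusted p = 0.0135 from limma). NO04G00910 (chromosome 4, 297931 to 300050) had 10.7, 8.90 and 7.45 in M1 and 15.2, 16.4 and 16.1 in M3, with 14.8, 14.3 and 17.4 in the WT (-0.76, SE 0.14, adjusted p = 0.0176). The call of NO11G02480 ended without M1 replicate 2 (0.0619) and that of NO04G00910 without M1 replicate 2, M3 replicate 2 or M3 replicate 3 (from 0.0580 to 0.0687). Both also fell in M1 relative to the WT (log2 differences -0.92 and -0.72, SE 0.20 and 0.14, adjusted p = 0.0419 and 0.0333), calls that ended without any 1 of 11 libraries (all but M1 replicate 1, M2 replicate 1 and M3 replicates 1 and 3) and of 5 (WT replicates 1 to 3 and M1 replicates 2 and 3), with adjusted p-values of 0.0521 to 0.134 for the first gene and 0.0658 to 0.103 for the second. The call of NO11G02480 also ended with unscaled TPM (0.061) and quantile normalization (0.0654), and that of NO04G00910 with a replicate block (0.0663).

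**Figure D3:**
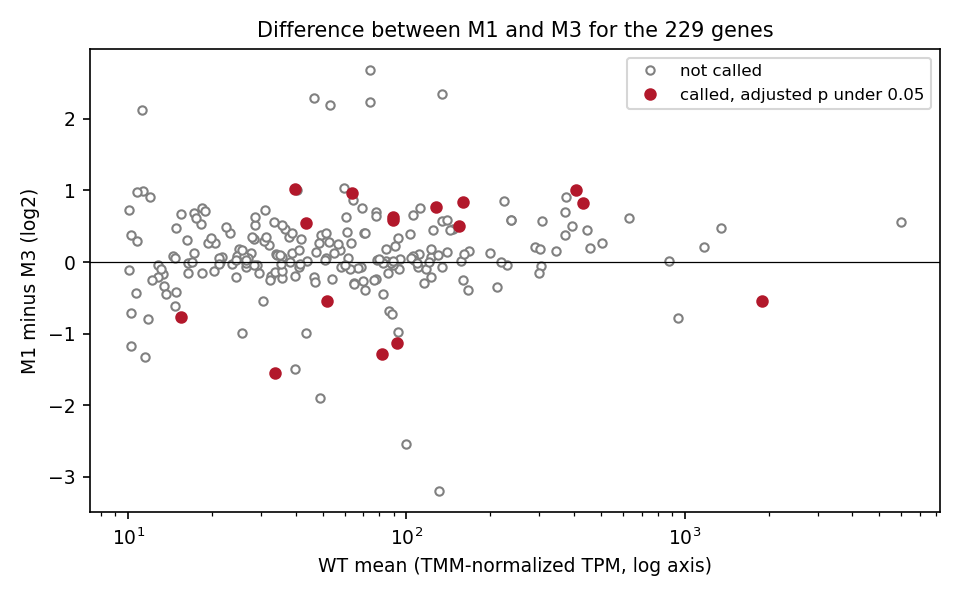
M1 minus M3 difference of the 229 members (vertical axis, log2, from the limma fit) against the WT mean (horizontal axis, TMM-normalized TPM, log scale). Red points are the 16 members called at an adjusted p under 0.05, 10 above and 6 below 0, and open points the members not called.

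Within groups, the members moved together from library to library. For each library, the deviation of log2(value + 1) from the group mean was taken for every gene. In M1 replicate 1 the median over the members was 0.22, with 191 of 229 above the group mean, and in M1 replicate 3 it was -0.29, with 197 below. M1 replicate 2 was at 0.08. Replicate 1 was the highest M1 library in 156 members and replicate 3 the lowest in 178. Among the genes that passed the WT minimum, replicate 1 was the highest in 34.2% and replicate 3 the lowest in 41.98%.

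Smaller deviations of the same kind were found in the WT (-0.09, 0.08 and 0.07 in replicates 1, 2 and 3) and in M3 (0.11, 0.04 and -0.12), whereas in M4 all were within 0.05 of 0 and in M2 within 0.07. Medians over the 8151 genes that passed the WT minimum were between -0.0154 and 0.0153 in every library (the scaling between libraries sets such medians near 0). The 137 genes with the opposite signs deviated the other way in the same libraries, at -0.14 in M1 replicate 1, 0.10 in M1 replicate 3, 0.15 in WT replicate 1 and 0.16 in M3 replicate 3.

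The median SD of the members between replicates was 0.33 on the log2 scale in M1 and 0.27 in M3, against 0.15 and 0.15 for the genes that passed the WT minimum. It was 0.22 in the WT (0.13), 0.17 in M2 (0.10) and 0.13 in M4 (0.12). Over the 3 M1 libraries the members made up 2.58% to 3.78% of all values. Organelle genes there made up 0.0453% to 0.0465%, and the ratio of coverage to FPKM was 5.12 to 5.29, so that within M1 neither spread as the members did. Elsewhere the organelle share was lowest in WT replicate 1 (0.0330%) and M3 replicate 3 (0.0352%), where the members' median deviation was lowest too. In M4 both were highest in replicate 2 (0.0750%), but in M2 the share was lowest in replicate 3 (0.0271%), where that median was highest. What differed between the cultures of a group is not in the labels and was not tested, nor was the part of the organelle share.

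**Figure D4:**
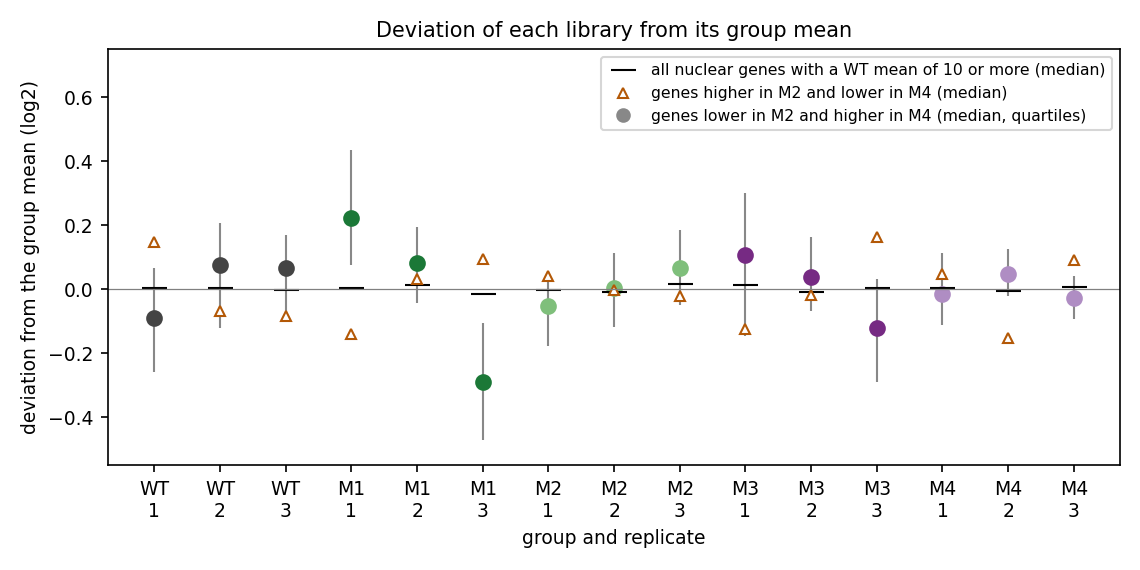
Median deviation of each library from its group mean (vertical axis, log2) for the 229 members (filled circles, with quartiles as bars), the 137 genes with the opposite signs (open triangles) and all 8151 nuclear genes with a WT mean of 10 or more (dashes). The members spread from 0.22 to -0.29 within M1, and the triangles lie on the other side of 0 in M1 replicates 1 and 3.

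Members were found on all 30 nuclear chromosomes, with no large cluster. Their share among genes that passed the WT minimum ran from 0.699% on chromosome 23 (1 of 143) to 6.94% on chromosome 30 (5 of 72), with 6.04% on chromosome 26 (9 of 149) and 4.80% on chromosome 27 (6 of 125); chromosome 3 held the most, 20. Lengths and strands were those of other genes: the median length was 2369 bases against 2322, 49.3% were on the plus strand against 49.9%, 16.6% overlapped another gene against 19.4%, and the median WT mean was 52.8 TMM-normalized TPM against 58.8.

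Near chromosome ends members were denser. Among the 10 genes at either end of a chromosome were 27 members, or 11.8%, on 18 chromosomes, against 4.64% of the genes that passed the WT minimum. By gene number from the nearer end, members were 5.26% of those genes at numbers 1 to 5 (10 of 190), 9.04% at 6 to 10 (17 of 188), 6.23% at 11 to 20 (24 of 385), 2.97% at 21 to 50 (39 of 1314), 2.39% at 51 to 100 (56 of 2343) and 2.22% beyond (83 of 3731). The 137 genes with the opposite signs were also denser there, at 4.74%, 2.66% and 3.64% in the first 3 of these bins and 1.15% in the last. Of the 34 genes that passed the WT minimum and were outermost at a chromosome end, 4 were members, NO02G00010, NO04G05300, NO06G00010 and NO09G00010.

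At the start of chromosome 1, 4 members are evenly spaced and may be copies of one another, which was judged from positions and values and not from sequence. NO01G00030, NO01G00100, NO01G00170 and NO01G00240, all on the minus strand, start at 4741, 16550, 28261 and 39764, that is 11809, 11711 and 11503 bases apart, in a stretch of 24 genes. NO01G00030 and NO01G00100 are both 564 bases long and had the same values in every library to within 0.00036 on the log2 scale, so that they may share reads and their values are uncertain, while NO01G00170 and NO01G00240 differ from them in length and level. NO01G00030 had 221, 225 and 269 TMM-normalized TPM in the WT, 88.1, 82.7 and 83.1 in M2, 497, 367 and 397 in M4, 324, 289 and 160.5 in M1, and 192, 182 and 125 in M3. Means of NO01G00170 and NO01G00240 were 134 ± 10.4 and 14.8 ± 1.00 (SD, n = 3) in the WT, 47.6 ± 4.16 and 6.57 ± 0.422 in M2, and 233 ± 49.7 and 27.1 ± 3.13 in M4. The other 6 genes of the stretch that passed the WT minimum had an L from -0.18 to -0.02 in M2 and from -0.22 to 0.15 in M4. They may hold copies too. NO01G00050 and NO01G00190 are both 2175 bases long with a WT mean of 19.9, and NO01G00060 and NO01G00200 are both 3072 bases long with 42.3. The 6 are therefore not shown to be separate genes in their values. Taken as 1, the 4 members of the stretch leave 226 members, and 26 among the 10 genes at either end.

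Side by side with another member were 32 members (14.0%), in 13 pairs and 2 runs of 3. These hold 17 neighbouring pairs, or 0.254% of the 6680 neighbouring pairs of genes that passed the WT minimum. A share of pairs cannot be set beside the members' 2.81% share of single genes. No reference share of pairs was computed, so 0.254% is not shown to be low or high. Of the 17 neighbouring pairs, 7 were on the same strand, 6 divergent and 4 convergent (37.2%, 31.4% and 31.4% of all neighbouring pairs of nuclear genes), and 1 pair, NO11G03570 and NO11G03580, shared 927 bases, so that reads there cannot be told apart.

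Both runs of 3 hold a divergent pair with 1 more gene behind it. In the run on chromosome 24, NO24G02220 (592340 to 594397) is the member with the highest WT mean, at 5990.2 ± 1610.0 TMM-normalized TPM (SD, n = 3), and NO24G02230 (595181 to 596761) and NO24G02240 (596926 to 598260) had 69.0 ± 19.3 and 112 ± 31.3. In M2 the 3 genes had means of 3223 ± 263, 30.8 ± 2.58 and 47.2 ± 6.92, and in M4 of 8295 ± 941, 102 ± 7.54 and 184 ± 9.14. All 3 had the highest of their 15 values in M1 replicate 1, with 9836, 122 and 205, above the M4 libraries as well.

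In the run on chromosome 26, NO26G01530 (496166 to 501457), NO26G01540 (502768 to 503208) and NO26G01550 (503568 to 503978) had WT means of 159.6 ± 19.5, 30.9 ± 3.28 and 28.6 ± 6.93 TMM-normalized TPM (SD, n = 3). Their M2 means were 62.6 ± 2.28, 13.0 ± 1.99 and 10.8 ± 1.75, and their M4 means 241 ± 15.8, 54.9 ± 4.87 and 54.3 ± 10.1. In all 3 genes M2 and M4 were apart from the WT. NO26G01530 was higher in M1 than in M3, as given before, and limma did not call NO26G01540 (log2 difference 0.73, SE 0.22, adjusted p = 0.1055) or NO26G01550 (0.63, SE 0.29, adjusted p = 0.279).

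Of the pairs with a listed member, NO20G01770, the aquaporin, lies 149 bases from NO20G01760 (531600 to 534157), which is on the other strand. Its means, in TMM-normalized TPM with the SD of 3 libraries, were 115 ± 24.3 in the WT, 66.3 ± 1.12 in M2 and 154 ± 9.42 in M4. NO03G05710, the GMC oxidoreductase, lies 7 bases behind NO03G05700 (chromosome 3, 1640201 to 1640980) on the same strand, 9 and 10 genes from the end. NO03G05700 had 18.3 ± 4.44 in the WT, 11.5 ± 1.13 in M2 and 26.3 ± 4.13 in M4, next to 18.4 ± 4.76, 9.46 ± 1.27 and 29.5 ± 2.27 for its neighbour.

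**Figure D5:**
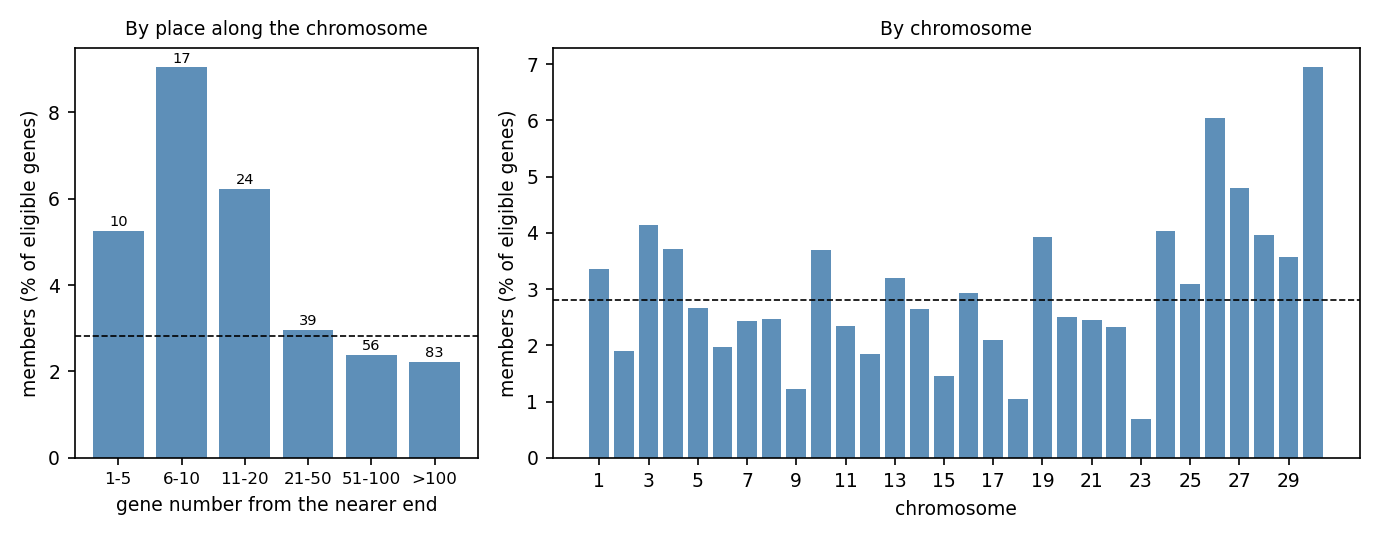
Members as a percentage of the nuclear genes with a WT mean of 10 or more, by gene number from the nearer chromosome end (left, with the number of members above each bar) and by chromosome (right). The dashed line is the share over all chromosomes, 2.81%; the bars for numbers 6 to 10 and 11 to 20 reach 9.04% and 6.23%.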

How the data were processed

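The 15 RNA-seq libraries were all used. Per the study's methods, reads went through nf-core/rnaseq with the STAR aligner, and Trinity made a matrix with RSEM and TMM scaling. The library kit does not mark strand. The TPM, FPKM and coverage values that the authors deposited in each library's table have the layout of StringTie output, a tool the methods do not name for these data. The signal used here is the matrix that the authors deposited, TMM-normalized TPM, which equals each table's TPM times 1 factor for the library (0.947 to 1.05), up to rounding. Counts were not analysed here, so depth is known only as the ratio of coverage to FPKM, and no counting error is given. Coordinates are of the IMET1v2 genome.

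Members followed the thresholds given in the text. M1, M3 and WT were compared by linear models on log2(value + 1), fitted to all libraries in limma 3.58.1 (R 4.3.3) with 1 coefficient per group, a variance trend, genes with a mean of at least 1 (9440), and Benjamini-Hochberg adjustment. The study's methods name a test on counts, in whose place limma was used. For the other steps the versions were numpy 2.4.6, pandas 2.3.3, matplotlib 3.10.9 and Python 3.11.15. The limma step was also run on simulated data with known differences, in which noise was drawn separately for each gene and library. The members moved together from library to library, which that simulation does not cover. Leaving out libraries and other normalizations, filters, pseudocounts and limma settings were the alternatives.

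The members, gene lists and tests were chosen with earlier results of these data known. The text names members that are in the function lists or described, the 10 with the lowest L of M2, the 10 with the highest L of M4, the 5 with the highest WT mean, the 5 with the largest difference of M1 from M3 in each direction among those called, runs of 3 neighbours, pairs with a listed gene, and genes at the edges of the thresholds. The 4 evenly spaced members on chromosome 1, the other genes named beside them, NO04G05300, NO02G05450, NO12G00330 and NO11G03570 with NO11G03580 fall outside this rule. They were named after their values were seen. Sequences are not shown.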

Additional observations from a re-analysis of the deposited data

Results flagged for a closer look

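In 52 of the 229 members all 3 M3 libraries were below all 3 WT libraries while all 3 M4 libraries were above them (2.55% of the 8151 genes that passed the WT minimum), so that the lines of the same knocked-out gene lay on opposite sides of the WT; the M4 side follows from the choice, and the difference between the lines was not tested. In 4 members (NO04G02990, NO11G02670, NO12G00330 and NO26G01530) all 3 M1 libraries were above and all 3 M2 libraries below the WT (0.466% of the 8151 genes), again with the M2 side set by the choice and the difference not tested; all 3 M1 libraries were above the WT in 2.18% of the members and 9.26% of the 8151 genes.

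Among the 160 organelle genes, which the choice leaves out, 2 chloroplast genes met all of its thresholds. How many of the 160 passed the WT minimum was not counted. The chaperone gene cp-dnaK had means of 10.2 TMM-normalized TPM in the WT, 1.44 in M2 and 20.7 in M4. For cp-psbD, of the photosystem II reaction centre, they were 10.7, 3.42 and 22.9. The organelle genes' summed share of a library was also lower in M2 (0.0271% to 0.0318%) and higher in M4 (0.0600% to 0.0750%) than in the WT (0.0330% to 0.0476%). Whether these 2 genes differ from other organelle genes was not tested.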

How the results depend on the processing

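The number of members was 216 to 265 when 1 WT, M2 or M4 library was left out, 183 to 253 under the other pseudocounts, normalizations and WT minima, 114 with an L of at least 0.5 in size and 7 with at least 1. Members with M2 and M4 both apart from the WT numbered 159 to 170 when a library was left out, against 158 with all libraries. Groups with fewer libraries are more easily apart, so these counts are no measure of stability. Members called higher and lower in M1 than in M3 numbered 2 to 35 and 2 to 8 when 1 library was left out, 0 and 0 in a fit of the compared groups alone, and 0 and 2 at an adjusted p under 0.01. Members called higher and lower in M1 than in the WT numbered 0 to 1 and 1 to 18 when a library was left out; 0 were lower in a fit of the compared groups alone, 5 with a replicate block and 1 at an adjusted p under 0.01. Members called higher and lower in M3 than in the WT numbered 0 to 1 and 0 to 14. Of 201 alternative values for these counts and the count of neighbours, 174 were labelled as staying within 1.5 times the value given. Members higher in M1 than in the WT, and higher or lower in M3 than in the WT, numbered 0 in the main fit. Alternatives of 0 for these counts are among the 174, although 1.5 times 0 sets no range. The 174 are thus no measure of how stable the other counts were. None of the 18 calls named with their values in the text (11 of M1 against M3, 7 of M1 against the WT) changed sign.

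The replicate numbers are not shown to pair the libraries: deviations of same-numbered libraries from their group means correlated at -0.08 to 0.10 over 30 pairs of libraries, of which 1 was over 0.1. The replicate block gave 7 members higher and 5 lower in M1 than in M3. Chosen after seeing the data, other normalizations and leaving out members with a library at 0 kept the median deviations of the members at -0.30 to -0.23 in M1 replicate 3 and at 0.20 to 0.23 in M1 replicate 1. Without counts, the precision of single values is unknown, and with 3 cultures of 1 clone in each group, the tests cover the spread between these cultures.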
